A study of Mus musculus with 10 samples.

Results

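The mouse genome holds 2 copies of a short cluster that encodes the microRNAs miR-23, miR-27 and miR-24. Cluster a, on chromosome 8, holds the hairpins Mir23a, Mir27a and Mir24-2, and cluster b, on chromosome 13, holds Mir23b, Mir27b and Mir24-1. These 6 of the 1174 annotated miRNA hairpins were chosen by name, and their mature arms were followed through 10 small RNA libraries of sorted cells. A read of 18 to 26 nt was given to an arm when its first 18 bases matched the hairpin exactly in sense, with at most 2 later mismatches. The 6 hairpins gave 11 arms that reads could tell apart, of 763 arms in the table. Across the libraries 347249 reads matched a member, and 0.864% of them could have come from either copy and were counted apart.

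The study sequenced small RNAs of Day 6 mouse primordial germ cell-like cells (mPGCLCs), made from embryonic stem cells in embryoid bodies, and of the surrounding cells of those bodies (non-PGCLC). All lines were XY, and every group had 2 libraries. E14 is a 129/Ola line without a reporter, and its mPGCLC were sorted as Ssea1+/Cd61+. BG5 is a C57BL/6J/DBA/129 line with a Blimp1-GFP reporter, and its mPGCLC were sorted as Ssea1+/Blimp1-GFP+. SGET is a B6CBA/129 line with Stella-GFP and Esg1-tdTomato reporters. For SGET, only the non-PGCLC were analysed here. The deposited protocol names the Stella-GFP and Esg1-tdTomato gate for every library, whereas the methods of the study give a gate for each line. The non-PGCLC are a mixture with no marker of their own, and the lines differ in strain, reporter and gate together, so these cannot be told apart. Nothing in the labels says whether replicates came from separate cultures, so p-values measure the spread between these libraries, which may be technical.

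A miRNA hairpin is cut into a 5p and a 3p arm, and usually one arm, the guide, stays in an Argonaute protein while the other, the passenger, is lost. The guide finds messenger RNAs mainly through its seed, bases 2 to 8, and lowers their stability and translation. The 3p arms are the guides of these clusters, which are known from blood vessels, the immune system, muscle and mesenchymal tissue.

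The reference sequences show how far reads can separate the copies (RefSeq, GRCm38.p6, 10 of the 11 mature names matched; capitals mark the seed, 5′ to 3′). The 3p arms come first because they carry nearly all reads, and the miR-24 5p arms follow because only they separate Mir24-2 from Mir24-1.
mmu-miR-23a-3p: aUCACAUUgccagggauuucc
mmu-miR-27a-3p: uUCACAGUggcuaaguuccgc
mmu-miR-27b-3p: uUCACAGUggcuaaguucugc
mmu-miR-24-3p: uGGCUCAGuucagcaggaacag
mmu-miR-24-2-5p: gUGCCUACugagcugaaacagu
mmu-miR-24-1-5p: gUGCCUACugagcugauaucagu
mmu-miR-23b-3p is named only. Counting from 1 at the 5′ end of the mature sequence, the Mir23b hairpin differs from miR-23a-3p by U19A, and Mir27b differs from miR-27a-3p by C19U. Base 19 lies outside the seed, so the a and b guides of each family share theirs, while miR-23 (UCACAUU) and miR-27 (UCACAGU) differ within it. The 3p arms of Mir24-2 and Mir24-1 are identical over all 22 bases and were merged as miR-24-3p. Outside the clusters, miR-5124b, miR-6369, miR-6410 and miR-6413 share the miR-24-3p seed GGCUCAG, and no other mature sequence of the table shares the seed of miR-23a-3p or of the miR-27 guides. None of the 4 had an arm with reads in the table.

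On GRCm38, Mir23a lies at 84208518 to 84208592, Mir27a at 84208672 to 84208758 and Mir24-2 at 84208815 to 84208921 of chromosome 8, plus strand, a span of 404 nt. Mir24-2 overlaps an exon of Gm26532, and Mir3074-2 is annotated on its opposite strand. On chromosome 13, Mir23b lies at 63300484 to 63300557, Mir27b at 63300712 to 63300784 and Mir24-1 at 63301208 to 63301275, plus strand, a span of 792 nt. Mir23b is in an intron of 2010111I01Rik, Mir27b and Mir24-1 overlap exons of it, and all lie opposite introns of Fancc, a Fanconi anaemia gene on the minus strand.

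The libraries held 7421061 to 14444567 reads, of which 14.97% to 34.5% were assigned to miRNA arms. Levels are reads scaled to a library of 1000000 reads (RPM). Intervals and limits from counts cover counting error only, since the reads carry no molecular identifiers, and few distinct sequences stood behind each arm. Sequences with at least 10 reads had a typical 51.9 to 247 copies, depending on the library. The pluripotent and germ cell list (the miR-290 and miR-302 clusters, 11 of 11 hairpins read) summed to 224300 and 196575 RPM in E14 mPGCLC, 75176 and 52745 in BG5 mPGCLC, 93560 to 135103 in E14 non-PGCLC, 143614 to 158881 in SGET non-PGCLC and 8094 to 9216 in BG5 non-PGCLC. The mesenchymal list (miR-199, miR-214, miR-143 and miR-145, 6 of 6 read) summed to 306 to 683 RPM in mPGCLC, 1685 to 2226 in E14 and SGET non-PGCLC, and 28680 and 17982 in BG5 non-PGCLC. The BG5 non-PGCLC thus stood apart on both lists, and both BG5 mPGCLC libraries lay below every E14 and SGET non-PGCLC library in the pluripotent and germ cell markers. Other lists moved with the groups too. The endothelial list (miR-126, 1 of 1 read) was at 12.1 and 48.2 RPM in E14 non-PGCLC, 103 and 110 in BG5 non-PGCLC, 132 and 83.4 in SGET non-PGCLC and 58.2 to 109 in mPGCLC. The blood list (2 of 4 read, Mir144 and Mir451a having no arm with reads) was at 5.52 and 1.94 RPM in E14 non-PGCLC, 7.19 and 82.5 in BG5 non-PGCLC, 59.8 and 79.2 in SGET non-PGCLC and 12.9 to 58.5 in mPGCLC. The epithelial list (5 of 5 read) was higher in mPGCLC than in non-PGCLC of the same line without overlap, at 1901 and 1984 against 1114 and 1133 RPM in E14 and 4337 and 3172 against 1399 and 1386 in BG5, and was at 3031 and 2693 RPM in SGET non-PGCLC. The muscle, neural and endoderm lists (5 of 5, 6 of 6 and 5 of 5 read) ranged from 5.97 to 232, 0 to 310 and 11.4 to 340 RPM.

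All 11 arms were read, and 4 of the 5 guides stood among the 82 most abundant arms in every library. Members made up 0.730% to 2.10% of miRNA reads. The 5p arms gave 2.31% to 7.34% of member reads in sum, although Mir27a-5p was close to or above its guide in some libraries. Summed over the guides, the level was 2458 and 2827 RPM in E14 mPGCLC, 2119 and 2175 in E14 non-PGCLC, 2995 and 1895 in BG5 mPGCLC, 4624 and 4425 in BG5 non-PGCLC, and 3501 and 4237 in SGET non-PGCLC. In RPM, the BG5 and SGET non-PGCLC libraries lay above the other 6 in this sum. As a share of miRNA reads the BG5 non-PGCLC libraries were still the highest (1.42% and 2.05%), whereas SGET non-PGCLC (1.17% and 1.30%) overlapped with BG5 mPGCLC (1.38% and 1.27%) and with E14 non-PGCLC (0.920% and 1.22%). In these bulk libraries, fewer cells that make a miRNA and less of it per cell cannot be told apart.

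Mir23a-3p was the steadiest guide, with a 1.73-fold range over the 10 libraries. It stood at 690 and 724 RPM in E14 mPGCLC, 586 and 654 in E14 non-PGCLC, 557 and 461 in BG5 mPGCLC, 798 and 584 in BG5 non-PGCLC, and 485 and 536 in SGET non-PGCLC. The order of the group means was E14 mPGCLC, BG5 non-PGCLC, E14 non-PGCLC, SGET non-PGCLC and BG5 mPGCLC. The first pair in that order overlapped, as did the second pair and the last.

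Mir23b-3p, which has the same seed, ranged 5.17-fold. Its levels were 540 and 512 RPM in E14 mPGCLC, 276 and 336 in E14 non-PGCLC, 645 and 468 in BG5 mPGCLC, 1069 and 1426 in BG5 non-PGCLC, and 790 and 1001 in SGET non-PGCLC. It was lowest in E14 non-PGCLC and highest in BG5 non-PGCLC. The E14 and BG5 mPGCLC overlapped, and no other pair of neighbours in the order of means did.

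Mir27b-3p stood at 607 and 822 RPM in E14 mPGCLC, 528 and 561 in E14 non-PGCLC, 900 and 529 in BG5 mPGCLC, 1523 and 1137 in BG5 non-PGCLC, and 1001 and 797 in SGET non-PGCLC. BG5 non-PGCLC was highest without overlap, and the other neighbours in the order of means overlapped. miR-24-3p stood at 551 and 705 RPM in E14 mPGCLC, 703 and 537 in E14 non-PGCLC, 793 and 410 in BG5 mPGCLC, 1219 and 1231 in BG5 non-PGCLC, and 1185 and 1904 in SGET non-PGCLC. Its 4 libraries of BG5 and SGET non-PGCLC lay above the other 6, and the BG5 and SGET libraries overlapped.

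Mir27a-3p, cut from the same cluster as Mir23a, was the scarce guide. It was at 70.3 and 64.0 RPM in E14 mPGCLC, 26.95 and 87.8 in E14 non-PGCLC, 99.99 and 26.6 in BG5 mPGCLC, 15.2 and 46.9 in BG5 non-PGCLC, and 39.6 and 0.205 in SGET non-PGCLC. No pair of groups compared here was free of overlap. The last value rests on 2 reads, and elsewhere 2 to 6 sequences of at least 10 reads carried the arm, against 4 to 18 for the other guides.

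**Figure D1:**
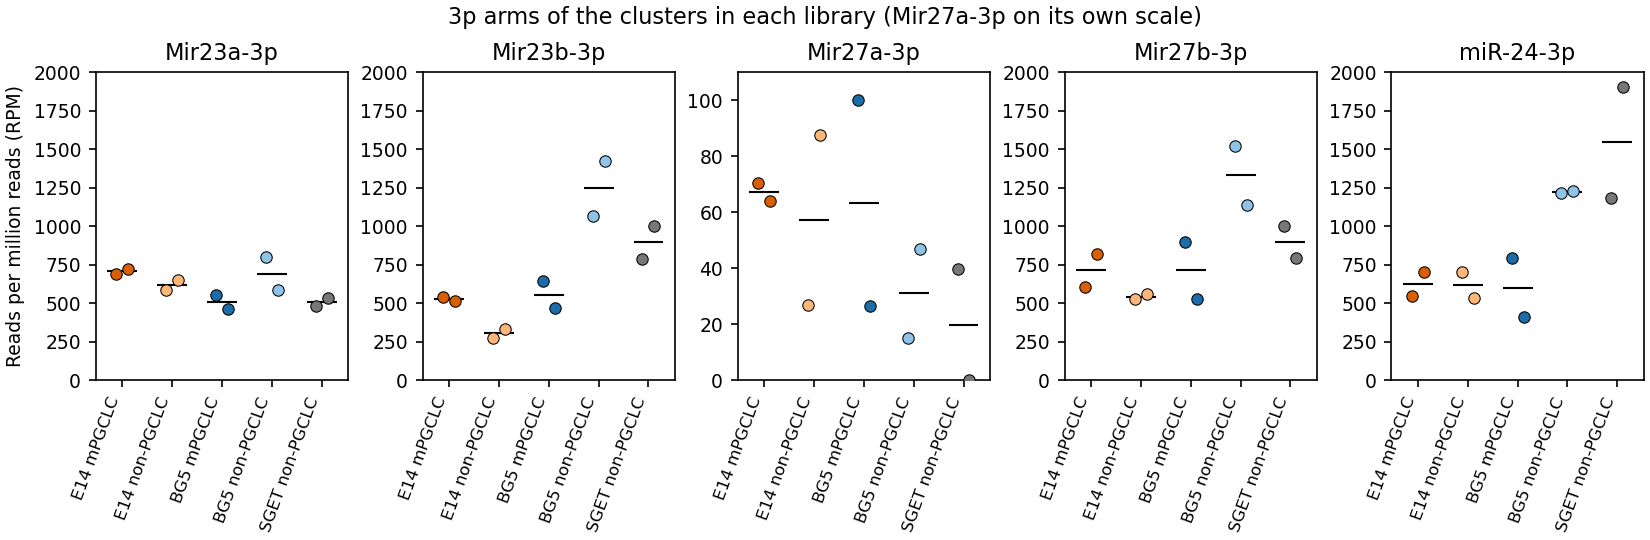
Level of each 3p arm (RPM, linear axis from 0) in the 5 groups, with 1 point for each library and a bar at the mean of 2. Mir23b-3p, Mir27b-3p and miR-24-3p are highest in BG5 or SGET non-PGCLC, while Mir23a-3p stays between 461 and 798 RPM; Mir27a-3p has its own scale, up to 99.99 RPM.

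The first comparison asked whether mPGCLC differed from the cells around them. Of the 11 member arms, 0 passed in the mean of E14 and BG5, in E14 alone or in BG5 alone (edgeR quasi-likelihood test, adjusted p under 0.05), where 14.8%, 2.85% and 14.1% of the 561 tested arms passed. Of the 33 member tests behind this, 0 had an unadjusted p under 0.05, beside 131, 65 and 115 of all 561 arms in the same order. DESeq2 also called 0 member arms, beside 147, 55 and 121 of all arms. In the mean of both lines the log2 change, mPGCLC minus non-PGCLC, was 0.14 for Mir23a-3p (95% interval -0.37 to 0.64), 0.02 for Mir23b-3p (-0.54 to 0.58), -0.02 for Mir27b-3p (-0.50 to 0.47) and -0.29 for miR-24-3p (-0.78 to 0.20). For Mir27a-3p it was 0.71, with an interval of -1.75 to 3.18. The median of the 11 arms was 0.02, beside 0.14 over all arms. The intervals leave room for changes of either sign for each guide, and other scalings turned the sign for Mir23a-3p and Mir23b-3p.

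Within the lines, no guide passed the test, and the direction of the RPM differed between E14 and BG5 for 3 guides. The RPM of Mir23a-3p, Mir23b-3p and Mir27b-3p was higher in both E14 mPGCLC libraries than in both E14 non-PGCLC libraries, and lower in both BG5 mPGCLC libraries than in both BG5 non-PGCLC libraries. Of the 11 member arms, 3 were higher in E14 mPGCLC without overlap (24.8% of all arms were) and 1 was lower (14.4%), so the first share was close to that of all arms. In BG5 mPGCLC, 6 were lower (35.3% of all arms were) and 1 was higher (17.5%). The RPM directions rest on scaling by total reads. With scaling by total reads the median of all arms was -0.73 in BG5 and 0.12 in E14, whereas with the scaling of the fit it was -0.04 and 0.00. On the fitted scale Mir23b-3p changed by 0.59 in E14 (interval -0.21 to 1.38) and by -0.55 in BG5 (interval -1.34 to 0.25), neither past the threshold. Mir27b-3p changed by 0.19 (interval -0.49 to 0.88) and -0.23 (interval -0.91 to 0.46). Mir23a-3p did not keep the RPM directions on that scale, at -0.0060 in E14 (interval -0.72 to 0.71) and 0.28 in BG5 (interval -0.44 to 0.99). For Mir23b-3p the BG5 change minus the E14 change was -1.13 (SE 0.53, interval -2.25 to -0.01, adjusted p = 0.331 by edgeR). It was -0.56 without BG5 non-PGCLC replicate 2 and -1.95 with scaling by total reads, not called in either, and other single libraries left out moved it between -1.49 and -0.93. In that test 0 of 11 member arms passed by edgeR and 0 by DESeq2, 1 had an unadjusted p under 0.05 (83 of all 561 arms had), and 5.70% of all arms passed. Without BG5 non-PGCLC replicate 2, the BG5 change of Mir23b-3p was 0.02.

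The second comparison set the non-PGCLC of the 3 lines against each other. The estimates for the miR-23 copies had opposite signs against E14, without passing the adjusted threshold. From E14 to BG5 non-PGCLC, Mir23b-3p had a log2 change of 1.06 (SE 0.38, interval 0.26 to 1.86, adjusted p = 0.0715 by edgeR) and Mir23a-3p of -0.89 (SE 0.34, interval -1.61 to -0.17, adjusted p = 0.0964 by edgeR). From E14 to SGET non-PGCLC the changes were 1.02 for Mir23b-3p (SE 0.38, interval 0.23 to 1.82, adjusted p = 0.191 by edgeR) and -0.80 for Mir23a-3p (SE 0.34, interval -1.52 to -0.08, adjusted p = 0.291 by edgeR). Both comparisons share the E14 libraries. In RPM, Mir23a-3p overlapped between BG5 and E14 non-PGCLC, with the higher mean in BG5 (691 ± 151 against 620 ± 48.3, SD, n = 2). By edgeR, 0 of 11 member arms passed the adjusted threshold in either, where 15.5% and 4.63% of all arms did. At an unadjusted p under 0.05 the counts were 2 and 3 of 11, beside 133 and 71 of all 561 arms.

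Whether these arms passed depended on the setting. DESeq2 called Mir23a-3p and Mir23b-3p between BG5 and E14, and Mir23b-3p between SGET and E14, where it called 149 and 76 of all 561 arms. RLE size factors called Mir23b-3p between BG5 and E14 (1.20, with 84 of all arms called). Scaling by total reads called it between SGET and E14 (1.55, with 24 called). Reads divided by typical copies, chosen after seeing the data, called Mir23a-3p between BG5 and E14 (-1.25) and both miR-23 copies between SGET and E14. The counts over all arms for that setting are given below. Without BG5 non-PGCLC replicate 1, Mir23b-3p was called in both (log2 change 1.31 and 1.16), and without SGET non-PGCLC replicate 2, Mir23a-3p was called between BG5 and E14 (-1.09). Without BG5 non-PGCLC replicate 2, in contrast, the change of Mir23b-3p between BG5 and E14 was 0.49, and with only the groups compared it was 0.76, neither called, although the fit of only those groups called Mir23a-3p (-1.19). Leaving out single libraries moved it between 0.49 and 1.31. With scaling by total reads Mir23a-3p turned to 0.16 between BG5 and E14 and Mir23b-3p reached 2.03, and Mir23b-3p and Mir27b-3p were called. Under that scaling the median of all arms was 1.19, so the 2 miR-23 copies lay on either side of it, as they lay on either side of the median of 0.16 on the fitted scale. Mir23b-3p and Mir27b-3p had their highest RPM in BG5 non-PGCLC, where the mesenchymal list was highest, and miR-24-3p was as high in SGET non-PGCLC, where that list reached 2226 RPM. These RPM values rest on scaling by total reads. On the fitted scale, from E14 to BG5 non-PGCLC, Mir27b-3p changed by 0.24 (interval -0.44 to 0.93) and miR-24-3p by -0.0086 (interval -0.70 to 0.68), neither called. The endothelial, blood, epithelial and endoderm lists were also higher in BG5 and in SGET than in E14 non-PGCLC without overlap, endoderm at 102 and 109 RPM in BG5 and 61.9 and 128 in SGET against 22.1 and 39.9 in E14. The muscle list was higher in SGET than in E14 without overlap, at 232 and 54.0 against 50.7 and 6.74 RPM. In BG5 it overlapped with E14, at 68.8 and 27.3 RPM. The neural list was lower in BG5 and in SGET without overlap, at 42.6 and 53.9 RPM in BG5 and 117 and 0 in SGET against 243 and 150 in E14. The part of any of these cell types in the values was not tested.

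miR-24-3p had a log2 change of 0.79 from E14 to SGET non-PGCLC (SE 0.33, interval 0.10 to 1.49, adjusted p = 0.267 by edgeR) and of 0.80 from BG5 to SGET non-PGCLC (SE 0.33, interval 0.11 to 1.499, adjusted p = 0.116 by edgeR). In the latter comparison 0 of 11 member arms passed by edgeR and 0 by DESeq2, 1 had an unadjusted p under 0.05 (148 of all 561 arms had), and 18.7% of all arms passed. Reads divided by typical copies, chosen after seeing the data, called miR-24-3p there (log2 change 1.05). Without BG5 non-PGCLC replicate 2, miR-24-3p passed there (log2 change 1.12), and with scaling by total reads the change was 0.33 there and 1.32 against E14, neither called. Without SGET non-PGCLC replicate 1, which leaves for SGET only the library with 2 reads of Mir27a-3p, that arm passed against both other lines. By non-overlap in RPM, 4 of 11 member arms were higher in BG5 than in E14 non-PGCLC (39.9% of all arms) and 0 lower (12.1%). In SGET against E14, 5 were higher (22.3%) and 1 lower (14.1%), and in SGET against BG5, 4 were lower (35.3%) and 2 higher (16.8%).

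**Figure D2:**
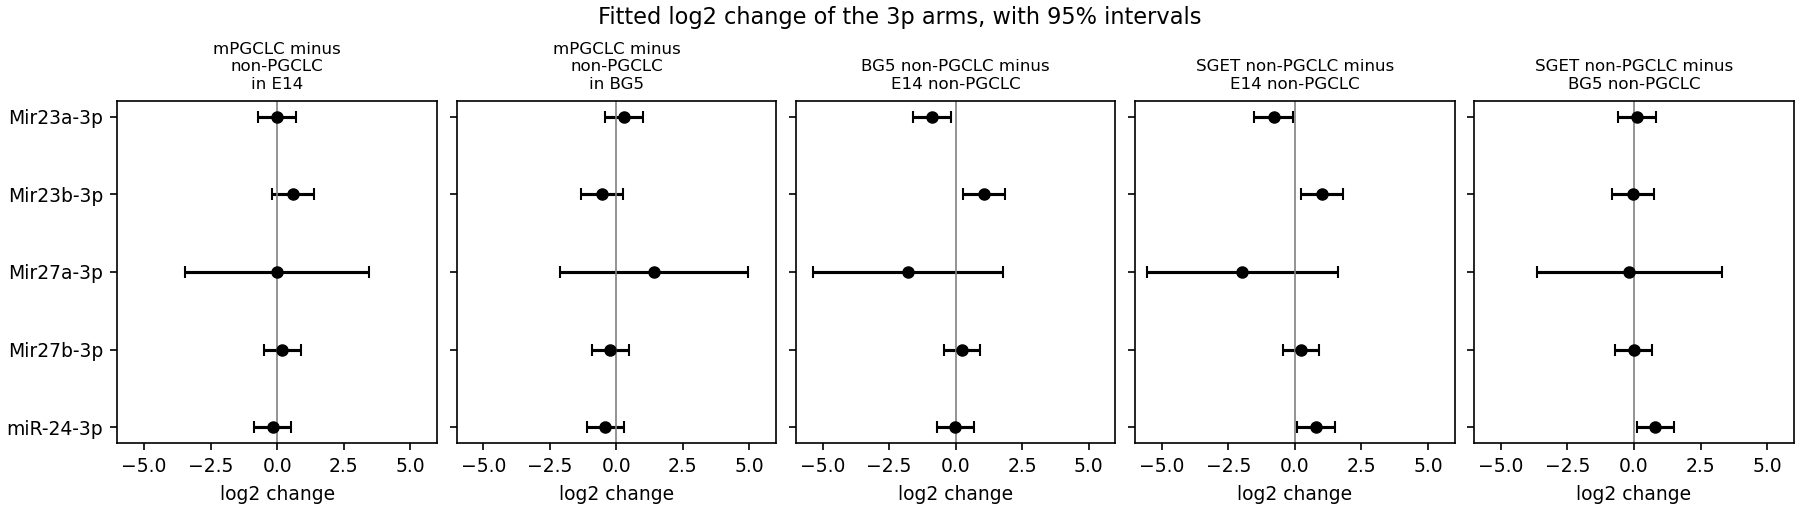
Fitted log2 change (horizontal axis) of each 3p arm in 5 comparisons, with points for the estimate and bars for its 95% interval. Mir23a-3p and Mir23b-3p lie on opposite sides of 0 in both comparisons with E14 non-PGCLC, and the bars of Mir27a-3p are the widest in each panel.

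The share of a copy within a library needs no scaling between libraries. Of the miR-23-3p reads that could be told apart, Mir23a gave 56.1% and 58.6% in E14 mPGCLC, 68.0% and 66.1% in E14 non-PGCLC, 46.4% and 49.6% in BG5 mPGCLC, 42.7% and 29.1% in BG5 non-PGCLC, and 38.1% and 34.9% in SGET non-PGCLC. The a copy was thus in the majority in the 4 E14 libraries and in the minority in 5 of the other 6. In BG5 mPGCLC replicate 2, at 49.6%, the 95% Wilson interval by counting ran from 48.6% to 50.6%, so the copies could not be ranked there. The widest 95% Wilson interval by counting, in E14 non-PGCLC replicate 1, ran from 66.8% to 69.1%. Reads with neither the a nor the b base at position 19 were 0.0535% of miR-23-3p reads.

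Between the cell types the share differed little on average, 52.7% in mPGCLC against 51.5% in non-PGCLC (4 libraries each, difference 1.18 points, two-sided exact permutation test p = 0.943, adjusted p = 0.943 over 5 such tests; the smallest p possible was 0.0286). The lines went opposite ways without overlap: mPGCLC minus non-PGCLC was -9.71 points in E14 (57.3% ± 1.76 against 67.0% ± 1.36, SD, n = 2) and 12.1 points in BG5 (48.0% ± 2.29 against 35.9% ± 9.67, SD, n = 2). In BG5 non-PGCLC the replicates stood apart, at 42.7% and 29.1%, and the difference was smaller with the first alone. The shares of the 2 mPGCLC groups thus lay between those of the E14 and BG5 non-PGCLC.

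For miR-27-3p the a copy was the minority in all 10 libraries. Mir27a gave 10.4% and 7.22% of the reads in E14 mPGCLC, 4.86% and 13.5% in E14 non-PGCLC, 10.0036% and 4.78% in BG5 mPGCLC, 0.990% and 3.97% in BG5 non-PGCLC, and 3.81% and 0.0257% in SGET non-PGCLC. The mean was 8.10% in mPGCLC and 5.84% in non-PGCLC (difference 2.26 points, exact permutation p = 0.486, adjusted p = 0.810), with overlap in E14 and none in BG5. Reads that matched both copies equally well are left out of these shares, and E14 non-PGCLC replicate 2 had 605 of them beside 8363 that could be told apart. By base 19 alone, with such reads included, 20.4% of its miR-27-3p reads had the a base in place of 13.5%, and at most 11.1% did in any other library. The lowest SGET value, 0.0257%, is 2 of 7789 reads (95% Wilson interval 0.00704% to 0.0936%). Of the miR-27-3p reads, 0.208% had neither the a nor the b base at position 19.

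The families therefore divided differently between the clusters. In 10 of 10 libraries the a share of miR-23-3p exceeded that of miR-27-3p, by 25.1 to 63.1 points. Within cluster b, the level of Mir23b-3p was 0.522 to 1.26 times that of Mir27b-3p. Within cluster a, Mir23a-3p was 5.57 to 52.4 times Mir27a-3p in the 9 libraries other than SGET non-PGCLC replicate 2. These ratios compare read counts of sequences of nearly equal length; how well each sequence is ligated and amplified was not tested.

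**Figure D3:**
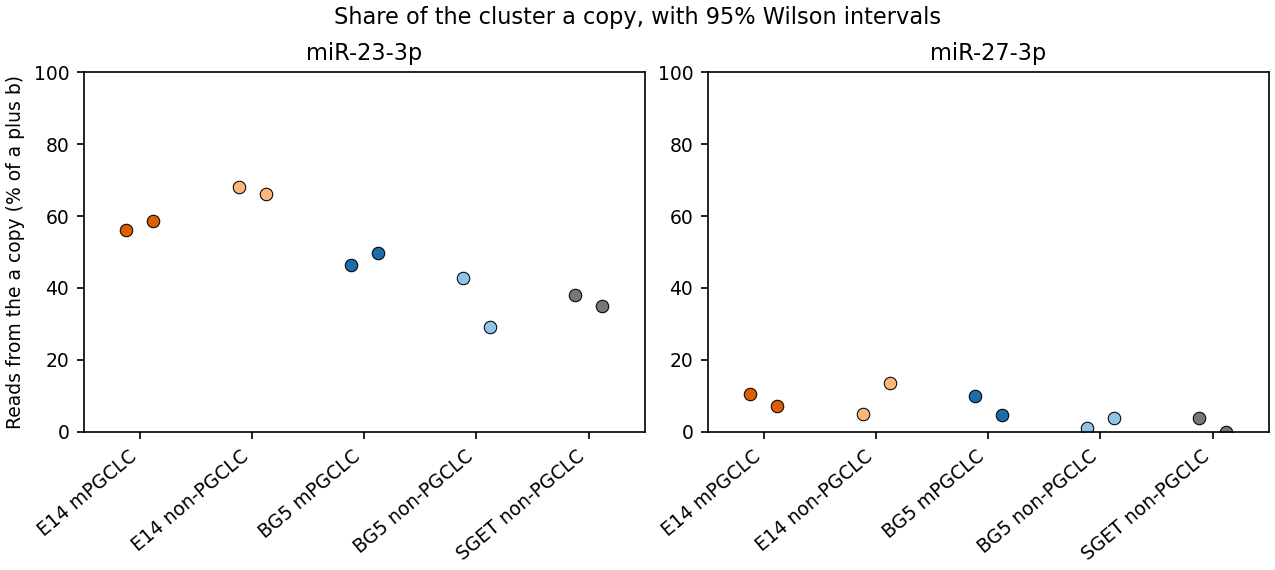
Percentage of miR-23-3p reads (left) and miR-27-3p reads (right) from the cluster a copy, in each library of the 5 groups, on axes from 0 to 100%; the 95% Wilson intervals are smaller than the points. The miR-23 share runs from 68.0% in E14 non-PGCLC to 29.1% in BG5 non-PGCLC, and the miR-27 share, without reads that match both copies, is 13.5% or less.

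The reads given to each copy also differed in length. Mir23b-3p was most often 23 nt long in 10 of 10 libraries (32.8% to 64.0% of its reads), while Mir23a-3p was most often 22 nt long in 9 (26.7% to 79.5% over the 10). Mir27b-3p was most often 21 nt long in all 10 (50.5% to 71.2%), whereas Mir27a-3p was most often 20 nt long in 6 and 21 nt long in 4. At most 0.194% of Mir27a-3p reads in a library were 22 nt long, against 7.06% to 17.8% for Mir27b-3p, but so few sequences carried Mir27a-3p that its lengths rest on a handful of them. Reads that matched both copies equally well are left out of these lengths, and 51.6% of them over both families were 18 nt long. In E14 non-PGCLC replicate 2 there were 605 for miR-27-3p, beside 1132 given to Mir27a-3p. Their part in the length difference was not tested. At the other end, over all libraries together, 93.1% to 99.7% of the reads of each guide began at its first base, which for Mir23b-3p was placed by the 18 bases it shares with the start of miR-23a-3p and for the others by the annotated mature.

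miR-24-3p was most often 22 nt long in all 10 libraries. That length took 62.0% and 58.7% of its reads in E14 mPGCLC, 62.3% and 66.1% in E14 non-PGCLC, 75.0% and 80.8% in BG5 mPGCLC, 81.0% and 61.6% in BG5 non-PGCLC, and 80.1% and 63.0% in SGET non-PGCLC. The replicates of BG5 and of SGET non-PGCLC lay further apart than those of the other 3 groups. Between mPGCLC and non-PGCLC the means were 69.1% and 67.7% (difference 1.34 points, exact permutation p = 0.943, adjusted p = 0.943).

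**Figure D4:**
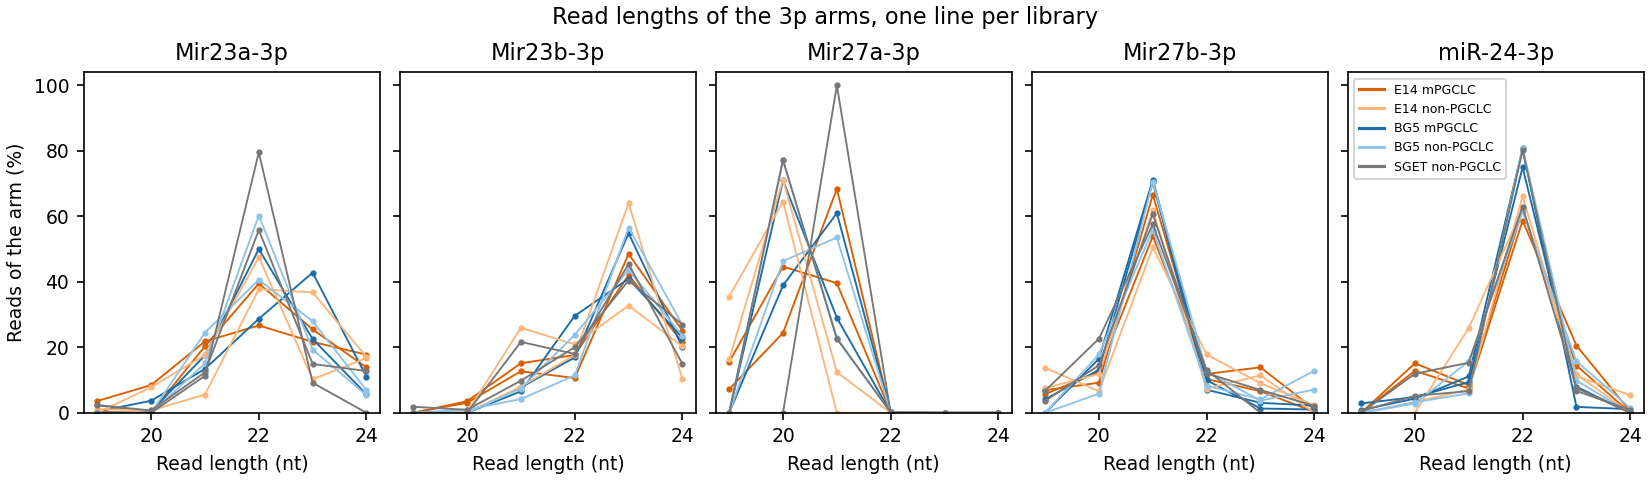
Share of each 3p arm's reads (percent) at each length from 19 to 24 nt, with 1 line for each library coloured by group. Reads that match both copies of miR-23 or of miR-27 are left out. Mir23b-3p peaks at 23 nt in every library and Mir27b-3p at 21 nt, while the Mir27a-3p lines peak at 20 or 21 nt, the line at 100% being the library with 2 reads.

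The passenger arms were scarce and uneven. Over the 6 arms and 10 libraries, 40 of the 60 values rested on 1 sequence of at least 10 reads or on none, and 12 were 0. Mir23b-5p, present in every library, was at 8.82 and 16.7 RPM in E14 mPGCLC, 43.1 and 61.8 in E14 non-PGCLC, 36.7 and 19.9 in BG5 mPGCLC, 71.2 and 68.8 in BG5 non-PGCLC, and 29.7 and 55.4 in SGET non-PGCLC. It was lower in mPGCLC than in non-PGCLC without overlap in both lines. The other 5p arms ranged from 0 to 77.3 RPM for Mir23a-5p, 0 to 196 for Mir27a-5p, 0.135 to 50.9 for Mir27b-5p, 0 to 35.3 for Mir24-2-5p and 0 to 31.6 for Mir24-1-5p. No 5p arm passed in any of the 7 contrasts, the lowest adjusted p being 0.311 (edgeR).

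The miR-24 5p arms are the sole means of telling Mir24-2 from Mir24-1, and they were read mostly from Mir24-2. In 7 libraries 100% of these reads, 98 to 456 a library, came from Mir24-2. BG5 mPGCLC replicate 2 had 75.3% of 194 reads (95% Wilson interval 68.7% to 80.8%), SGET non-PGCLC replicate 2 had 4.63% of 324 reads (2.83% to 7.50%), and BG5 mPGCLC replicate 1 had none of either. All reads of Mir24-1-5p in a library were of 1 sequence, 48 reads in the first of these and 309 in the second. In the other 8 libraries Mir24-1-5p had 0 reads, which allows up to 0.404 RPM in the shallowest. Between the cell types the test had 3 mPGCLC and 4 non-PGCLC libraries (difference -8.25 points), but 6 of the 7 stood at 100%, so that the exact permutation p could not fall below 0.429 and nothing is read from it. How much of miR-24-3p each copy gave cannot be told apart by the 3p arm.

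For miR-27, the 5p arms of both copies gave 2.26% and 3.17% of the reads in E14 mPGCLC, 4.14% and 3.45% in E14 non-PGCLC, 4.41% and 8.74% in BG5 mPGCLC, 1.47% and 1.76% in BG5 non-PGCLC, and 4.85% and 23.6% in SGET non-PGCLC. SGET non-PGCLC replicate 2 was highest, with 1917 reads of Mir27a-5p beside 2 of Mir27a-3p. In that library the passenger of Mir27a was thus read more than its guide, at 196 against 0.205 RPM. The 5p arm of Mir27a was also near its 3p arm in BG5 mPGCLC replicate 2 (256 against 272 reads), E14 non-PGCLC replicate 1 (177 against 200) and SGET non-PGCLC replicate 1 (415 against 571). It was far below in E14 non-PGCLC replicate 2 (1 against 1132) and BG5 non-PGCLC replicate 1 (0 against 144). The difference, mPGCLC minus non-PGCLC, was -1.08 points in E14 and 4.97 points in BG5, without overlap in either. Over both lines the difference was 1.94 points (exact permutation p = 0.286, adjusted p = 0.810). Each E14 non-PGCLC value rests on 1 sequence of at least 10 reads, from Mir27a-5p in replicate 1 (177 reads) and Mir27b-5p in replicate 2 (319). Typical copies of a sequence were 87.2 and 174 there, so nothing is read from the E14 difference.

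**Figure D5:**
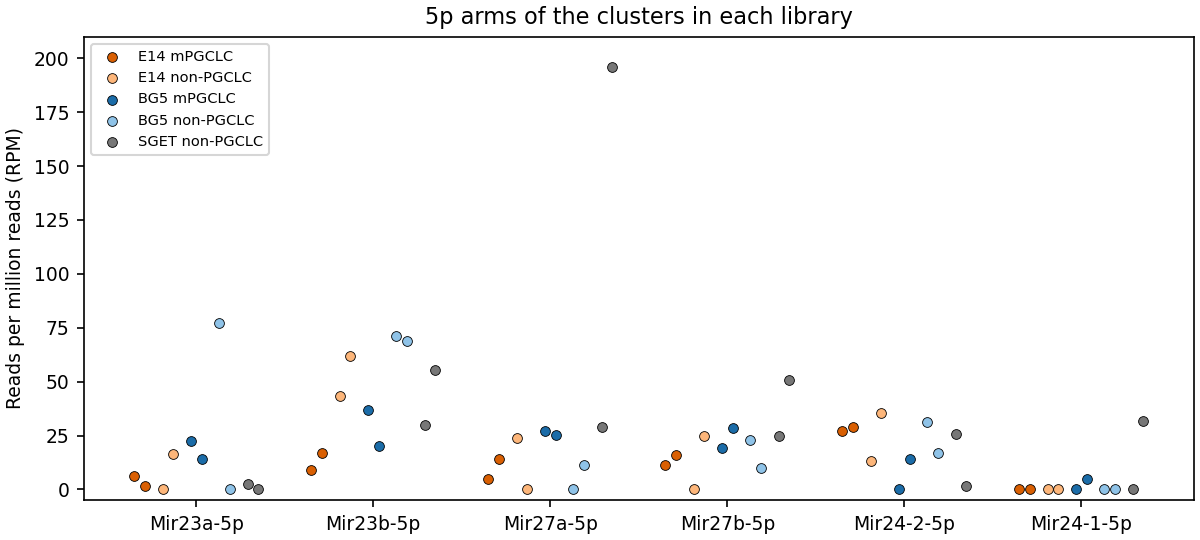
Level of each 5p arm (RPM, linear axis) in each library, coloured by group. All points but 1 lie at or under 77.3 RPM, and the highest, 196 RPM, is Mir27a-5p in SGET non-PGCLC replicate 2.

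Across the 10 libraries, Mir23b-3p, Mir27b-3p and the merged miR-24-3p had like profiles, and the a and b copies of a family did not. On log2(RPM + 1), Pearson's r was 0.84 between Mir23b-3p and Mir27b-3p, 0.77 between Mir23b-3p and miR-24-3p and 0.71 between Mir27b-3p and miR-24-3p. It was 0.01 between Mir23a-3p and Mir23b-3p, -0.13 between Mir27a-3p and Mir27b-3p, and 0.20 between Mir23a-3p and Mir27a-3p. The arms most like each guide were Mir186-5p for Mir23a-3p (0.90), Mir26a-5p for Mir23b-3p (0.88) and for Mir27b-3p (0.91), Mir203-3p for Mir27a-3p (0.92) and Mir5110-5p for miR-24-3p (0.88). Next came Mir320-3p and Mir196a-5p for Mir23a-3p, Mir26b-5p and Mir218-5p for Mir23b-3p, Mir9-5p and Mir1198-5p for Mir27a-3p, Mir21a-5p and Mir1843a-3p for Mir27b-3p, and Mir30d-5p and Mir423-5p for miR-24-3p. These coefficients describe 10 libraries that share their groups, depths and total-read scale. Those of Mir27a-3p include SGET non-PGCLC replicate 2, with 2 reads of the arm, where the neural list, which holds miR-9, was at 0 RPM. How much they rest on that library was not tested.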

How the data were processed

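Small RNAs of sorted cells had been made into NextFlex libraries, whose random adapter bases were not used as molecular identifiers, and runs of 2 instruments were merged. The authors trimmed the reads and deposited, for each library, a table of counts of each distinct read sequence; the submitters' processing notes name cutadapt 3.2, STAR 2.5.3a and GRCm38. From these counts, reads were assigned to hairpins of GENCODE vM21, and arms sharing most reads were merged. Counts of 561 arms that passed filterByExpr were fitted for 5 groups with edgeR 4.0.16 (R 4.3.3, TMM factors on total reads, quasi-likelihood test, Benjamini-Hochberg adjustment over all arms), in 7 contrasts. Shares were tested by exact permutation over libraries (scipy 1.17.1). Fits were also run on simulated counts with known changes and the same spread for every arm, which does not cover arms carried by few sequences. Named were all member arms, arms sharing a seed, the 3 arms most like each guide, and the marker lists. The members and lists were chosen with earlier results of these data known. DESeq2 1.42.0, other scalings, filters, read windows, a replicate block and leaving out libraries were the alternatives; division by the typical copies of a sequence and taking the copy from base 19 alone were chosen after seeing the data.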

Additional observations from a re-analysis of the deposited data

Results flagged for a closer look

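The a share of miR-23-3p was lower in both mPGCLC libraries than in both non-PGCLC libraries of E14 and higher in both of BG5. The BG5 difference exceeded the E14 difference by 21.8 percentage points. That gap was widened by BG5 non-PGCLC replicate 2, at 29.1% beside 42.7% in replicate 1. The share of miR-27 reads from the 5p arms likewise went opposite ways in every library of the 2 lines, with a gap of 6.04 points between the differences. Each E14 non-PGCLC value of that share rests on 1 sequence of at least 10 reads. In neither case was the difference between the lines tested, and groups of 2 libraries were too small to look for single libraries that stand apart.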

How the results depend on the processing

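Between mPGCLC and non-PGCLC, 0 member arms were called under every alternative run, of 11 tested, or of 10 with the replicate block or only the groups compared and of 4 with reads divided by typical copies. Between non-PGCLC of BG5 and E14, the number of member arms called was 1 with RLE size factors (84 of all 561 arms), 2 with total-read scaling (94 of 561), 2 with DESeq2 (149 of 561), 1 of 10 with only the groups compared (74 of 413) and 1 of 4 with reads divided by typical copies (136 of 209); between SGET and E14 it was 1 with total-read scaling (24 of 561), 1 with DESeq2 (76 of 561) and 2 of 4 with typical copies (54 of 209); between SGET and BG5 it was 1 of 4 with typical copies (156 of 209). Leaving out 1 library gave 0 to 1 in these 3 comparisons, and 0 in the others. The mean log2 change between cell types turned sign for Mir23a-3p with RLE (-0.021), total reads (-0.13), DESeq2 (-0.021) and exact matches (-0.039), for Mir23b-3p with RLE (-0.14), total reads (-0.19), DESeq2 (-0.14), exact matches (-0.10) and reads of 20 to 24 nt (-0.032), and for Mir27b-3p with the replicate block (0.074), only the groups compared (0.078) and typical copies (0.092). Mir23a-3p between BG5 and E14 non-PGCLC was 0.16 with total reads. Within lines, Mir23a-3p turned in E14 with total reads (0.19), no filter (0.018) and the replicate block (0.085) and in BG5 with total reads (-0.44), and Mir27b-3p turned in BG5 with typical copies (0.071). The cause of these shifts was not tested.

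Of all arms, the fit called 83 in the mean of both lines, 16 in E14, 79 in BG5, 32 between the lines' effects, 87 between BG5 and E14, 26 between SGET and E14 and 105 between SGET and BG5 non-PGCLC. DESeq2 called 147, 55, 121, 78, 149, 76 and 175. In E14 the count was 8 with total reads, 30 of 763 with no filter and 8 of 427 with only the groups compared. Typical copies tested only 209 arms and called 121, 34, 117, 62, 136, 54 and 156 in the same order. Without single libraries, with the tested arms held fixed, counts ran from 68 to 101, 7 to 29, 60 to 90, 27 to 46, 64 to 111, 2 to 42 and 92 to 125 in the order above; the lone library left in a group was assumed to vary like the others.

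Replicate numbers are shared between groups, and same-numbered libraries did not deviate alike (correlation of same-numbered deviations -0.0546 in E14 and 0.0289 in BG5). So few libraries cannot show whether same-numbered ones came from the same embryoid bodies. The replicate block called 9 arms in E14, moved no other count by over 1.5 times and called 0 member arms. The pairing left the miR-23-3p share difference at 1.18 points (exact sign-flip p = 0.875, over 4 pairs, the smallest p possible being 0.125).

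Without single libraries the differences of the shares ran from -6.29 to 6.69 points for miR-23-3p, 0.647 to 4.83 for miR-27-3p, -12.4 to 0 for miR-24-5p, 0.579 to 2.74 for the miR-27 5p arms and -2.54 to 5.75 for the 22-nt share of miR-24-3p, which with exact matches was -2.48. The mean log2 changes ran from 0.063 to 0.30 for Mir23a-3p, -0.080 to 0.30 for Mir23b-3p, 0.29 to 1.45 for Mir27a-3p, -0.12 to 0.15 for Mir27b-3p and -0.40 to -0.13 for miR-24-3p. The BG5 change of Mir23b-3p ran from -0.78 to 0.023, the E14 change of Mir23a-3p from -0.15 to 0.15 and that of Mir27b-3p from -0.0084 to 0.37. By base 19 alone the a share differed by 1.37 points for miR-23-3p and 1.29 for miR-27-3p. Over all alternatives that kept every library, the difference ran from 0.043 to 1.37 points for miR-23-3p and from 0.71 to 4.20 for miR-27-3p. Of 45 levels set relative to miRNA reads or summed over copies, 41 moved by more than 1 SD, as their construction implies. Mir27a-3p and the 5p arms rest on few distinct sequences; whether more reads would change this was not tested.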
